A study of Homo sapiens with 6 samples.

Results

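Wnt/β-catenin target genes were followed in HCT-116, an established human colon carcinoma cell line, in 3 libraries labelled GOLPH3 and 3 labelled Vector. By the study's account these are stable lines made with the viral vector PMSCV, with GOLPH3 or empty, and it reports the overexpression as protein, by western blot. The GOLPH3 transcript was not higher under the GOLPH3 label (mean of 1428 against 1777 normalized reads), and protein was not measured here. The genes were AXIN2, LGR5, ASCL2, NKD1, RNF43, ZNRF3, SP5, NOTUM, TCF7 and LEF1, chosen by symbol, and all 10 were found among the 60546 gene identifiers of the deposited table. Every library came from cells in DMEM with fetal bovine serum, labelled wild type in both groups; whether a line was a single clone is not stated. The methods describe the samples of each line as different generations. Titles also hold a P number, whose meaning the labels do not give: GOLPH3 replicates 1, 2 and 3 have 8, 12 and 13, and Vector replicates 1, 2 and 3 have 12, 11 and 13. Levels are given as normalized reads, that is, reads per gene after division by one factor per library, as deposited, and BH-adjusted means adjusted by Benjamini-Hochberg over all genes tested.

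Canonical Wnt signalling keeps β-catenin from being destroyed, so that it enters the nucleus and drives transcription with the TCF/LEF factors. Many of the genes it drives feed back on the pathway at the cell surface or in the destruction complex, and their transcripts are widely used to read its activity in the intestine. In HCT-116 the pathway is active without ligand because the line carries an activating deletion in CTNNB1, the β-catenin gene. The question was how these targets stood in the cells labelled GOLPH3 against those labelled Vector.

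The recovered reads totalled 15708846 to 21900764 per library. GOLPH3 itself (chromosome 5, 32124704 to 32174350, GENCODE 29 on GRCh38) had 1630, 1272 and 1383 normalized reads under the GOLPH3 label and 1968, 1892 and 1472 under the Vector label (log2 fold change -0.31, standard error 0.27, BH-adjusted p = 0.609 in limma), so its transcript was not higher in the libraries named for it and the groups are called by their labels. The epithelial genes EPCAM, KRT8, KRT18, KRT19 and CDH1 were abundant in every library, and the intestinal regulators CDX2 (184.0 to 896.8 normalized reads) and HNF4A (62.4 to 130.2) were present in all 6, while VIL1, CDX1, CDH17, GPA33, LGALS4 and CEACAM5 had at most 10.3 normalized reads in any. The summed levels of 2 further marker lists did not overlap between the groups. The summed mesenchymal list (14 genes) lay between 2015 and 2179 normalized reads under the GOLPH3 label and between 4550 and 8675 under the Vector label. The summed list for an embryonic kidney line (8 genes) lay between 226.8 and 653.3 and between 2568 and 8168.

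Of the 10 target genes, LEF1 and LGR5 fell in the libraries labelled GOLPH3, and none of the others passed an adjusted p of 0.05 in limma, in either direction. LEF1 had no read in any library labelled GOLPH3 and was at least 101-fold lower there. LGR5 was present at a few reads. RNF43 was higher by 1.33 on the log2 scale with groups that did not overlap, which missed the threshold. AXIN2, ZNRF3, TCF7 and SP5 overlapped between the groups. Thus 2 of 10 passed, both lower, against 5.07% of all 26536 genes tested in either direction, 4.12% lower and 0.953% higher. At an unadjusted p under 0.05 the count was 4 of 10 (LEF1 and LGR5 lower, RNF43 and NOTUM higher), against 17.6% of all genes. Both counts include LEF1, which was tested only through its level in the Vector libraries. With a minimum of 1 in every library, which leaves LEF1 out, 1 of 8 passed an adjusted p of 0.05, as lower. Of all 18996 genes then tested, 282 were lower and 123 higher. With no minimum it was again 2 of 10, both lower, against 1130 lower and 294 higher of 36340. The median log2 fold change of the 10 was -0.19, with 5 positive and 5 negative, and it was 0.02 over all genes tested.

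**Figure D1:**
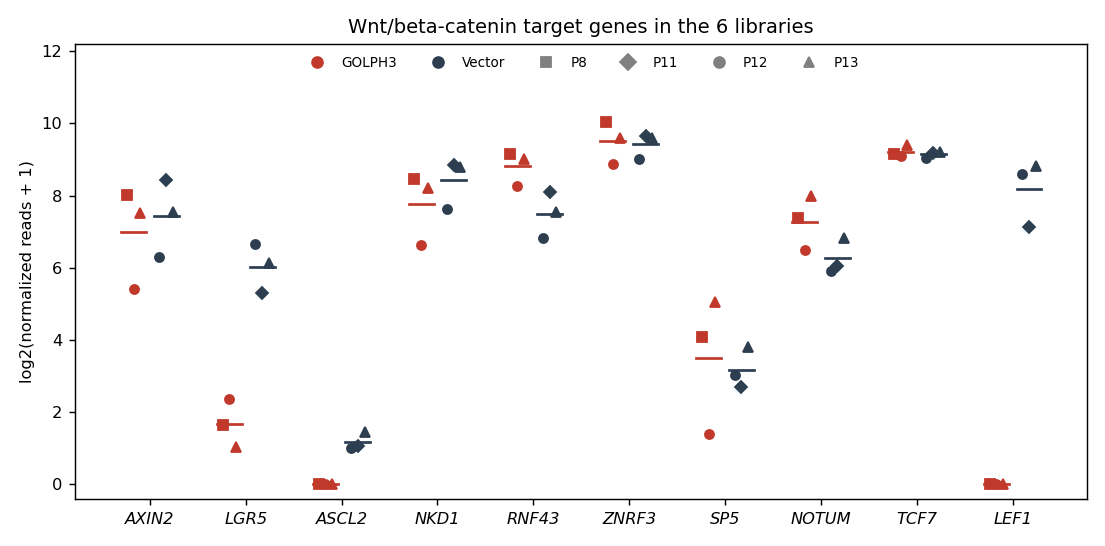
Level of each target gene as log2(normalized reads + 1) in the 3 libraries labelled GOLPH3 (red) and the 3 labelled Vector (dark), with the marker giving the number after P and the line the group mean. LEF1 lies at 0 in every red library and between 140.2 and 452.3 normalized reads in the dark ones, while TCF7 lies between 521.8 and 673.6 in all 6.

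LEF1 and TCF7 encode DNA-binding partners of β-catenin; a test of one against the other was not run. LEF1 (ENSG00000138795, chromosome 4, 108047545 to 108168956, minus strand) had 0, 0 and 0 normalized reads under the GOLPH3 label and 385.0, 140.2 and 452.3 in Vector replicates 1, 2 and 3. The groups lay far apart, and the Vector libraries differed among themselves, with the lowest in replicate 2. The fitted log2 difference was -8.19 (standard error 0.59, BH-adjusted p = 5.8e-06 in limma), and the bound of at least 101-fold is set against 3 reads in a library, the limit that a count of 0 allows for counting error. The same difference was -8.59 in the pair of libraries at P12 and -8.82 in the pair at P13. LEF1-AS1, annotated on the opposite strand, had at most 3.43 normalized reads in any library, and whether counting used strand is not stated.

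TCF7 (ENSG00000081059, chromosome 5, 134114711 to 134151865, plus strand) had 565.7, 545.1 and 673.6 normalized reads against 521.8, 580.6 and 592.2. All 6 libraries lay close together. Its log2 fold change was 0.07 (standard error 0.28, BH-adjusted p = 0.926 in limma), with a 95% confidence interval from -0.54 to 0.68. TCF7 overlaps SKP1 on the opposite strand, a gene with 1439 to 3992 normalized reads, and how reads in the overlap were counted is not stated.

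The zinc finger factor SP5 and the bHLH factor ASCL2, which marks intestinal stem cells, were low. SP5 (chromosome 2, 170715351 to 170718078) had 16.1, 1.65 and 32.0 normalized reads against 7.21, 5.48 and 12.9. The library labelled GOLPH3 at P12 was the lowest of all and the one at P13 the highest. The log2 fold change of 0.34 came with an interval from -1.53 to 2.22 (BH-adjusted p = 0.878 in limma), so a change of either sign was not detectable. ASCL2 (chromosome 11, 2268495 to 2270952) had 0 reads in every library labelled GOLPH3 and 1.03, 1.10 and 1.72 normalized reads under the Vector label. Every one of these is within the limit of 3 reads, and no fold is given.

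Promoter windows in the RefSeq table (GRCh38.p14) were at hand for 4 of the 10 genes, namely SP5, LEF1, TCF7 and RNF43. The 250 bases before each listed RefSeq start were searched on both strands for CTTTGAT and CTTTGAA, the core that TCF/LEF factors bind. The LEF1 and TCF7 windows lie inside the GENCODE bounds of these genes, before an internal start. The bases before their outermost annotated start were not searched. SP5 is shown because its window holds 3 matches, LEF1 because its transcript separates the groups, and RNF43 because its groups do not overlap. Each window is given 5′ to 3′ on the strand of its gene, and capitals mark a match. They lie at chr2:170715087-170715336 (plus), chr4:108166302-108166551 (minus) and chr17:58417535-58417784 (minus, the more distal of the RNF43 starts).
SP5: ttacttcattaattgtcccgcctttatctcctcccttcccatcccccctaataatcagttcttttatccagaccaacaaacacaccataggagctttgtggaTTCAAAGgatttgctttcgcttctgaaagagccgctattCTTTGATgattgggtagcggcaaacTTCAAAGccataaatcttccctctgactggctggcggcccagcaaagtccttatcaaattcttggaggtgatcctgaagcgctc
LEF1: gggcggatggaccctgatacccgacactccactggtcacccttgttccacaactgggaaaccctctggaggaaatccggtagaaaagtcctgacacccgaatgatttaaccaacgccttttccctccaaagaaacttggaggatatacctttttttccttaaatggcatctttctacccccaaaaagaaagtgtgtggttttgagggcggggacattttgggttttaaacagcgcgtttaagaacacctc
RNF43: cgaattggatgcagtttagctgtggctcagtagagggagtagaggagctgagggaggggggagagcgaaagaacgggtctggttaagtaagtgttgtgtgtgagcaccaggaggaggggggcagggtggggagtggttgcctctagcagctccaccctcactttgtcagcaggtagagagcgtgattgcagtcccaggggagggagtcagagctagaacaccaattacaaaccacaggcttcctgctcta

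SP5 holds 1 CTTTGAT and 2 CTTTGAA, whereas no match lies in the windows of LEF1, TCF7 and RNF43. Of all 35116 windows, 2.26% hold CTTTGAT, 3.80% hold CTTTGAA and 0.0199% hold 3 or more matches of either. These are matches of letters in one window, and SP5, with the 3 matches, was among the lowest of the target genes in both groups.

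LGR5, RNF43 and ZNRF3 act at the cell surface. LGR5 is a receptor for R-spondins and marks crypt stem cells, while RNF43 and ZNRF3 are ubiquitin ligases that remove Frizzled receptors and are held back by R-spondin. LGR5 (ENSG00000139292, chromosome 12, 71439770 to 71586310, plus strand) had 2.15, 4.12 and 1.07 normalized reads under the GOLPH3 label, from 2, 5 and 1 reads, and 99.8, 38.3 and 68.7 under the Vector label. Every Vector library was far above every GOLPH3 library. The log2 fold change was -4.34 (standard error 0.61, BH-adjusted p = 0.000832 in limma). From 8 reads against 212, the level was 26.8 times higher in the libraries labelled Vector, with an exact 95% interval of 13.3 to 62.8 that covers counting error only.

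RNF43 (ENSG00000108375, chromosome 17, 58352500 to 58417595, minus strand) had 567.9, 307.6 and 515.6 normalized reads against 112.2, 271.7 and 185.4. The lowest GOLPH3 library, at P12, was above the highest Vector library, at P11. Its log2 fold change of 1.33 (standard error 0.40, BH-adjusted p = 0.0852 in limma) was 1.45 within P12 and 1.47 within P13. With the P number as a block RNF43 passed (log2 fold change 1.46, BH-adjusted p = 6.24e-07 in limma). That fit takes its residual spread from the P12 and P13 pairs alone. Its p-values, here and for the genes below, rest mostly on limma's prior variance, which is shared over genes. RNF43 also passed with DESeq2 on the recovered reads (adjusted p = 0.0299) and without Vector replicate 2 (1.63, BH-adjusted p = 0.0377 in limma). Its partner ZNRF3 (chromosome 22, 28883592 to 29057487) had 1057, 465.9 and 766.5 normalized reads against 515.7, 804.1 and 768.1. These overlapped throughout, with a log2 fold change of 0.08 (standard error 0.35, BH-adjusted p = 0.932 in limma) that turned negative under 5 of 18 alternatives. TSPOAP1-AS1, annotated on the strand opposite RNF43, had 40.8, 10.7 and 22.4 normalized reads against 3.09, 13.2 and 9.44. The ratio of RNF43 to ZNRF3 reads within a library was 0.537, 0.660 and 0.673 under the GOLPH3 label and 0.218, 0.338 and 0.241 under the Vector label.

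AXIN2, NKD1 and NOTUM are feedback inhibitors. AXIN2 is a scaffold of the β-catenin destruction complex, NKD1 binds Dishevelled, and NOTUM is a secreted enzyme that removes the lipid that Wnt ligands need. AXIN2 (ENSG00000168646, chromosome 17, 65528563 to 65561647, minus strand) had 259.8, 41.2 and 182.5 normalized reads against 78.2, 346.2 and 185.4. Libraries of one group differed far more than the groups did, with the lowest at P12 in both. The log2 fold change was -0.45 (standard error 0.67, BH-adjusted p = 0.786 in limma), with an interval from -1.92 to 1.02. It was -0.91 within P12 and -0.02 within P13. It became 0.34 without GOLPH3 replicate 2 and 0.06 without Vector replicate 2.

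NKD1 (chromosome 16, 50548330 to 50649249) had 353.2, 98.9 and 294.6 normalized reads against 197.6, 462.3 and 440.3, again lowest at P12 in both groups. Its log2 fold change of -0.65 (standard error 0.50, BH-adjusted p = 0.554 in limma) passed with the P number as a block (-0.78, BH-adjusted p = 0.00999 in limma). NOTUM (chromosome 17, 81952507 to 81961840) had 164.2, 89.1 and 250.9 normalized reads against 59.7, 65.7 and 112.4. The GOLPH3 library at P12 lay below the Vector library at P13, and the other GOLPH3 libraries lay above all 3 Vector libraries. The log2 fold change of 1.01 (standard error 0.46, BH-adjusted p = 0.281 in limma) was 0.57 within P12 and 1.15 within P13, and it passed with the P number as a block (0.86, BH-adjusted p = 0.0385 in limma).

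**Figure D2:**
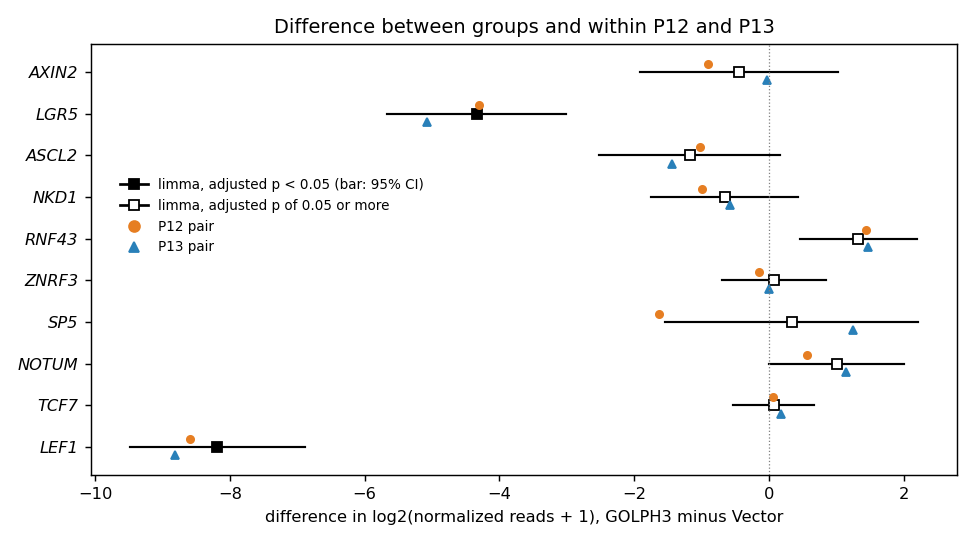
Difference in log2(normalized reads + 1) between the groups (GOLPH3 minus Vector) for each target gene, with the limma 95% confidence interval (square and bar, filled where the adjusted p is under 0.05) and the difference within the P12 pair (circle) and the P13 pair (triangle). LEF1 at -8.19 and LGR5 at -4.34 are filled, and SP5 has its circle at -1.63 and its triangle at 1.25; the LEF1 value depends on the pseudocount of 1.

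In all, the groups did not overlap in 4 of the 10 genes (RNF43 higher, LEF1, LGR5 and ASCL2 lower), against 22.0% of all genes tested. LEF1 and ASCL2, with 0 reads under the GOLPH3 label, reached the filter (1 in 3 or more libraries) only through the Vector libraries. Their lack of overlap therefore follows from being tested, and every ASCL2 value is within the limit of 3 reads. For each of the 4, permuting the 6 libraries exactly (two-sided exact permutation test) gave p = 0.1, which is the smallest p that 3 against 3 allow. With the P number as a block 5 of the 10 passed an adjusted p of 0.05 in limma (RNF43 and NOTUM higher, LEF1, LGR5 and NKD1 lower), against 22.9% of all genes, a fit in which only the P12 and P13 pairs bear on the difference.

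LEF1 and LGR5 were measured beside mesenchymal genes and genes of an embryonic kidney line. CDH2, the N-cadherin gene, had 2, 2 and 0 reads under the GOLPH3 label and 717.4, 279.4 and 737.2 normalized reads in Vector replicates 1, 2 and 3. The ratio of LEF1 to CDH2 in those 3 libraries was 0.537, 0.502 and 0.614, and that of LGR5 to CDH2 was 0.139, 0.137 and 0.0931. ZEB2, a repressor of epithelial genes, had 0 reads under the GOLPH3 label and 481.7, 190.6 and 430.8 normalized reads under the other. VIM, which encodes vimentin, had 5.37, 41.2 and 11.7 against 3407, 1653 and 3194 normalized reads. Like LEF1, these 3 genes were lowest in Vector replicate 2. The study reports N-cadherin and vimentin protein as higher, and E-cadherin protein as lower, in cells overexpressing GOLPH3. Here CDH2 and VIM RNA was lower under the GOLPH3 label. CDH1 RNA was not lower (log2 fold change 1.13, BH-adjusted p = 0.0578 in limma), and protein was not measured.

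Over all genes tested, 4.12% fell and 0.953% rose at an adjusted p under 0.05 in limma. Of the 14 mesenchymal genes 13 were tested, 5 fell and 0 rose at that threshold, and 1 was at 0 in every library labelled GOLPH3 (ZEB2). The list did not move as a whole, since 4 of the 13 had a positive log2 fold change. In 3 of these every library labelled GOLPH3 was above every Vector library, namely COL1A1 (0.91), THY1 (1.57) and ACTA2 (0.82). COL1A1, a collagen gene, passed as higher with the P number as a block (0.73, BH-adjusted p = 0.00386 in limma). Of the 8 embryonic kidney line genes 7 were tested and 4 fell. IRS4, NEFM and UCHL1 were at 0 in every library labelled GOLPH3, while NEFL had 1 read in a single library and PAX2 did not pass (112.1 to 134.2 against 88.7 to 147.6 normalized reads). NEFH and TUBB3 had positive log2 fold changes of 0.52 and 1.37 that did not pass, and TUBB3, a tubulin gene, passed as higher with the P number as a block (1.83, BH-adjusted p = 1.1e-06 in limma). IRS4, an insulin receptor substrate, had 1412, 1006 and 4831 normalized reads in Vector replicates 1, 2 and 3, and UCHL1 had 1173, 415.2 and 1757. The ratio of LEF1 to IRS4 in these libraries was 0.273, 0.139 and 0.0936, and that of LEF1 to UCHL1 was 0.328, 0.338 and 0.257. IRS4 and UCHL1 were lowest in Vector replicate 2, as LEF1 was, while NEFL and NEFM were lowest in replicate 1. Any part of these marker differences in the LEF1 and LGR5 results was not tested. Fewer expressing cells and less RNA per cell cannot be told apart in bulk RNA.

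**Figure D3:**
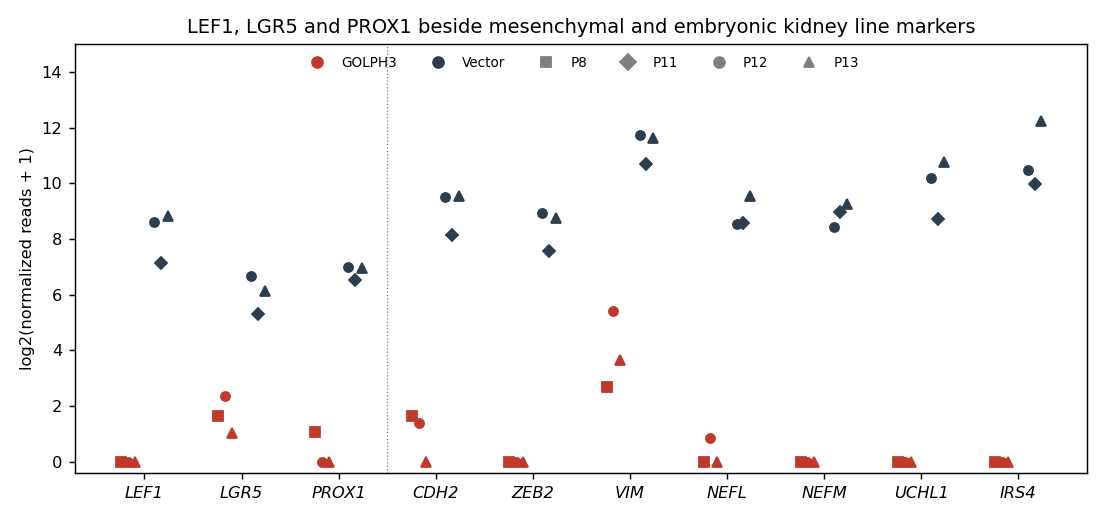
LEF1, LGR5 and the related target PROX1 (left of the dotted line) beside mesenchymal and embryonic kidney line markers (right), as log2(normalized reads + 1) in each library, coloured by group with the marker giving the number after P. All 10 genes separate the groups, and LEF1, ZEB2, NEFM, UCHL1 and IRS4 lie at 0 in the 3 libraries labelled GOLPH3. The markers shown are a selection from the 2 lists, all lower under the GOLPH3 label. COL1A1, THY1, ACTA2, PDGFRB, TUBB3, NEFH and PAX2 of the same lists had positive log2 fold changes and are not plotted.

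RNF43 and NOTUM were measured beside markers of colon epithelium. The summed list of 13 such genes lay between 62968 and 134559 normalized reads under the GOLPH3 label and between 30113 and 41240 under the Vector label. The keratins KRT8, KRT18 and KRT19 made up most of that sum in every library. Of 12 tested, 2 rose and 0 fell at an adjusted p under 0.05 in limma (KRT18 and KRT19), against 0.953% and 4.12% of all genes tested. The median log2 fold change was 1.10, with 11 positive. Among these 11, VIL1, CDH17, GPA33, LGALS4 and CEACAM5 had at most 10.3 normalized reads in any library. The negative one was the intestinal regulator CDX2, with a log2 fold change of -0.52 (BH-adjusted p = 0.636 in limma), which fell with the P number as a block (-0.99, BH-adjusted p = 0.000452 in limma). VIL1 and CDX1 were near 0 in both groups. The part of this difference in the RNF43 and NOTUM values was not tested.

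The number after P went with several of the target genes in both groups. The library at P12 was the lowest of its group, both among GOLPH3 and among Vector libraries, for AXIN2, NKD1, RNF43, ZNRF3, NOTUM and TCF7. That is 6 of 10, against 11.5% of all genes tested. In a limma fit with the group and a term for P12, chosen with these values known, AXIN2 was lower at P12 by 2.03 on the log2 scale (unadjusted p = 0.000532, adjusted p = 0.221) and NKD1 by 1.44 (unadjusted p = 0.00109, adjusted p = 0.304). None of the 10 passed an adjusted p of 0.05 for P12, and neither did any other gene (0.00% of 26536). At an unadjusted p under 0.05, 4 of the 10 were lower at P12 (AXIN2, NKD1, RNF43 and ZNRF3), against 7.24% of all genes in either direction.

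The P12 libraries did not share depth or mitochondrial share, with 21900764 reads and 4.41% for GOLPH3 and 16507112 reads and 7.08% for Vector; the part of either was not tested. Over the 6 libraries the log2 levels of AXIN2 correlated with those of NKD1 (r = 0.952) and ZNRF3 (r = 0.910), given as a description over libraries that share 2 groups and 4 P numbers. LGR5 correlated with LEF1 (r = 0.981), which follows the groups. Among 11266 genes with a mean of at least 100 normalized reads, the 5 whose levels were most like those of AXIN2 were EI24 (r = 0.991), LYPD6 (r = 0.991), VDAC1 (r = 0.988), AOPEP (r = 0.988) and PPARGC1B (r = 0.988). LYPD6, a membrane-anchored protein that binds the Wnt co-receptor LRP6, had 188.9, 51.1 and 119.6 normalized reads against 75.1, 201.6 and 134.7.

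**Figure D4:**
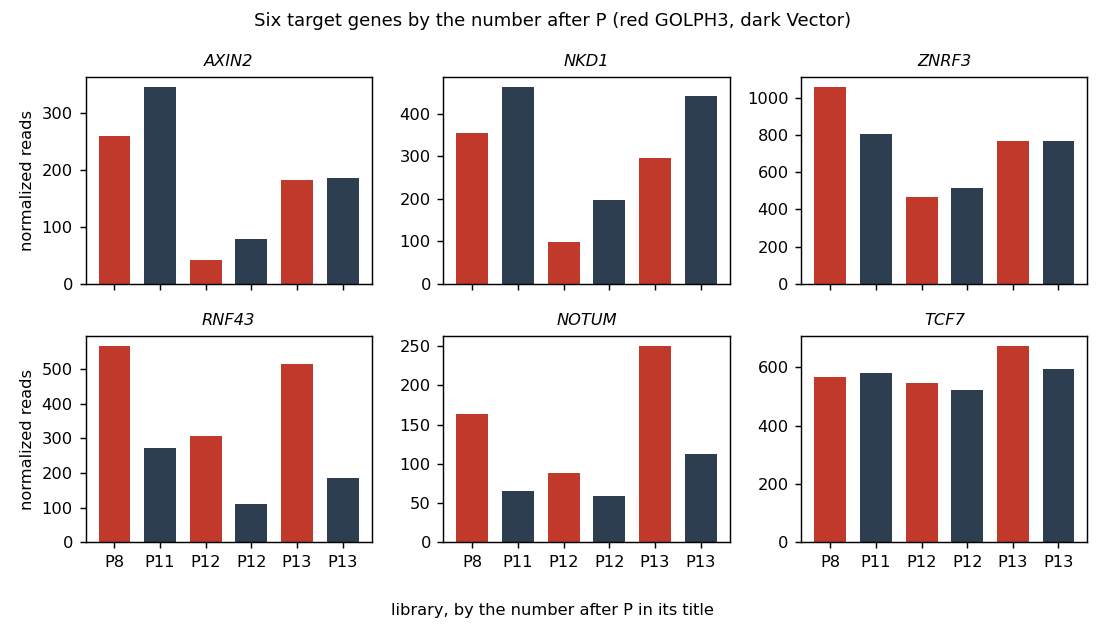
Normalized reads of 6 target genes (y axes from 0) in each library, ordered by the number after P, with GOLPH3 in red and Vector dark. The P12 bars are the lowest of each colour in every panel, for AXIN2 at 41.2 and 78.2, and the red RNF43 bars stand above the dark ones throughout.

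Per kilobase of exon in GENCODE 29 the order of the genes differed between the groups. In the libraries labelled GOLPH3 ZNRF3 came first at 109.5 ± 42.4 normalized reads per kilobase (SD, n = 3), followed by RNF43 at 61.8 ± 18.3, TCF7 at 59.1 ± 6.86, NOTUM at 55.7 ± 26.8 and AXIN2 at 30.8 ± 21.2. RNF43, TCF7 and NOTUM did not differ beyond their spread. NKD1 (14.3 ± 7.64), SP5 (8.05 ± 7.38) and LGR5 (0.466 ± 0.295) came next, with LEF1 and ASCL2 at 0.

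In the libraries labelled Vector ZNRF3 was again first at 99.9 ± 22.6 normalized reads per kilobase (SD, n = 3), but LEF1 came next at 60.8 ± 30.6, beside TCF7 at 56.1 ± 3.75. AXIN2 (38.9 ± 25.8), NOTUM (26.3 ± 9.56), RNF43 (25.3 ± 10.6), NKD1 (21.1 ± 8.43) and LGR5 (13.1 ± 5.86) followed, neighbours that lay within each other's spread. SP5 (4.14 ± 1.88) and ASCL2 (0.691 ± 0.205) were lowest. With the longest transcript as the length, TCF7 came first in the libraries labelled Vector at 106 ± 7.06 normalized reads per kilobase, and LEF1 came after TCF7 and ZNRF3 at 93.7 ± 47.2. Under the GOLPH3 label, that length put TCF7 at 111.4 ± 12.9 normalized reads per kilobase, level with ZNRF3 at 111.4 ± 43.2 and ahead of RNF43 at 83.2 ± 24.7.

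The other genes of the pathway were described from lists written with earlier results of these data known. Of 61 such genes 54 were tested, with a median log2 fold change of 0.07. At an adjusted p under 0.05 in limma 1 rose and 4 fell, against 0.953% and 4.12% of all genes tested. In the list of core components, 24 genes from the destruction complex to the nucleus, PYGO1 fell and none rose. PYGO1, a nuclear co-factor of β-catenin, had 18.2, 11.5 and 1.07 normalized reads against 110.1, 71.2 and 128.7 (log2 fold change -3.67, standard error 0.75, BH-adjusted p = 0.0123 in limma).

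CTNNB1, with 7084, 4966 and 5763 normalized reads against 5966, 7660 and 7117, did not pass (log2 fold change -0.23, BH-adjusted p = 0.727 in limma). The destruction complex genes APC and AXIN1 had log2 fold changes of -0.65 and 0.41 (BH-adjusted p = 0.493 and 0.64 in limma). TCF7L2, the main TCF of the intestinal epithelium, had 4428, 1649 and 2899 normalized reads against 1475, 2463 and 1344 (log2 fold change 0.70, BH-adjusted p = 0.378 in limma), and TCF7L1 had a log2 fold change of 0.51 (BH-adjusted p = 0.433 in limma). TCF7L2 and APC passed with the P number as a block, at 0.64 and -0.78 (BH-adjusted p = 0.0113 and 0.00148 in limma). The co-activator BCL9L and the Wnt transducer DVL1 had the next smallest p of the list, with log2 fold changes of 1.36 and 1.42 (BH-adjusted p = 0.144 and 0.179 in limma), and they passed with that block at 1.56 and 1.41 (BH-adjusted p = 2.56e-10 and 9.99e-09 in limma).

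Among 11 genes of the R-spondin axis and paralogues of the targets, 10 were tested and none passed an adjusted p of 0.05 in limma. At an unadjusted p under 0.05 the count was 3 (LGR4 and SP8 lower, NKD2 higher), against 17.6% of all genes tested. LGR4, the broadly expressed relative of LGR5, had 667.7, 64.3 and 368.3 normalized reads against 486.9, 829.3 and 1110 (log2 fold change -1.60, BH-adjusted p = 0.24 in limma). It was lowest at P12 in both groups. With the P number as a block it passed at -2.25 (BH-adjusted p = 1.81e-13 in limma). NKD2, the relative of NKD1, had 134.2, 94.0 and 142.0 normalized reads against 63.8, 67.9 and 28.3 and did not overlap between the groups (log2 fold change 1.27, BH-adjusted p = 0.153 in limma). SP8, a relative of SP5, had 20.4, 8.25 and 20.3 against 55.6, 52.6 and 79.8 (log2 fold change -1.95, BH-adjusted p = 0.0533 in limma). NKD2 and SP8 also passed with the P number as a block, at 1.42 and -2.27 (BH-adjusted p = 0.00199 and 0.000222 in limma). The R-spondin gene RSPO3 had no read in any library.

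Of 26 other reported targets 20 were tested, SOX9 rose, and PROX1, APCDD1 and WIF1 fell (limma adjusted p under 0.05). Over all genes tested 0.953% rose and 4.12% fell. SOX9, a transcription factor of crypt progenitors, had 3048, 2146 and 3598 normalized reads against 1351, 1235 and 1264 (log2 fold change 1.16, standard error 0.28, BH-adjusted p = 0.0353 in limma). It also passed with the P number as a block (1.09, BH-adjusted p = 5.97e-06 in limma). The SOX9 call was lost with the replicate number as a block, without the mean-dependent prior and with a minimum of 1 in every library. It was also lost when both P12 libraries, GOLPH3 replicate 3, Vector replicate 1 or Vector replicate 3 were left out. PROX1, a homeobox gene, had 1 read in a single library labelled GOLPH3 and 126.6, 90.9 and 123.6 normalized reads in the Vector libraries, a level at least 35.3-fold lower under the GOLPH3 label (BH-adjusted p = 2.45e-05 in limma). APCDD1, a membrane inhibitor of Wnt, had 0 reads against 25.7, 2.19 and 51.5 normalized reads, at least 8.22-fold lower (BH-adjusted p = 0.0243 in limma). WIF1, a secreted Wnt inhibitor, had 0 reads against 5.15, 7.67 and 6.87 normalized reads, at least 2.04-fold lower (BH-adjusted p = 0.0151 in limma). APCDD1 and WIF1 reached the filter only through the Vector libraries, so their lack of overlap follows from being tested. With a minimum of 1 in every library neither they nor PROX1 were tested, and 1 of 49 other pathway genes passed in limma, as lower.

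CCND1, which encodes cyclin D1, had 12489, 15024 and 17074 normalized reads against 9246, 10058 and 6426, with groups that did not overlap (log2 fold change 0.81, BH-adjusted p = 0.169 in limma). MYC had 5775, 14861 and 7724 against 7611, 4008 and 5561 (log2 fold change 0.65, BH-adjusted p = 0.416 in limma). Both passed with the P number as a block, at 1.05 and 0.72 (BH-adjusted p = 0.000108 and 0.00562 in limma). The stem cell genes OLFM4 and SMOC2 had no read in any library.

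**Figure D5:**
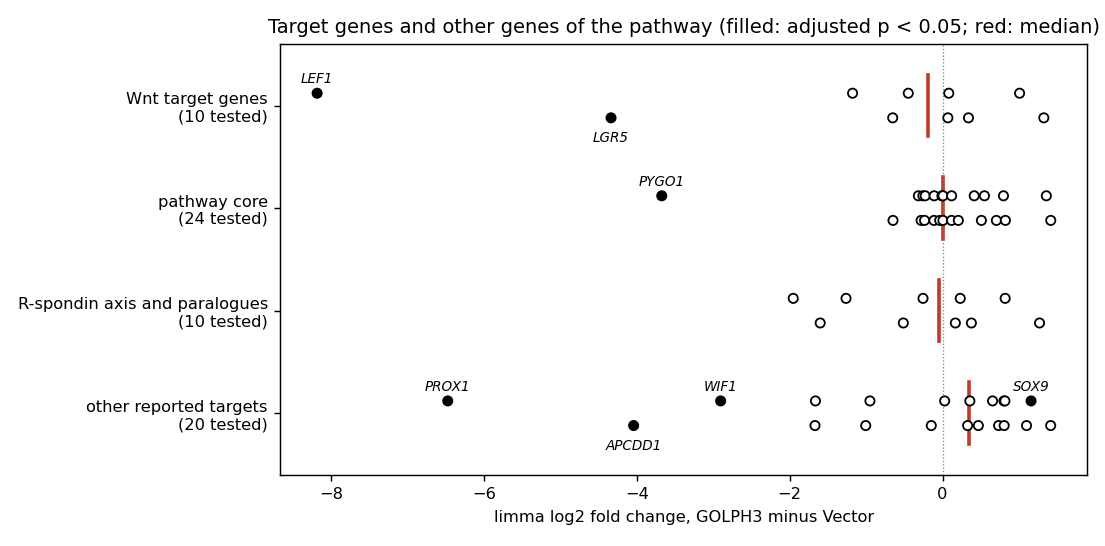
Limma log2 fold change (GOLPH3 minus Vector) of the tested genes in each list, with filled points and names where the adjusted p is under 0.05 and a red bar at the list's median. The medians lie between -0.19 and 0.34, and the named genes other than SOX9 lie to the left of 0.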

How the data were processed

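RNA from 3 libraries labelled GOLPH3 and 3 labelled Vector was sequenced. The authors deposited a normalized signal for every gene in each library. Per the labels, the submitters' processing notes name fastp 0.20.0, HISAT2 2.1.0, featureCounts 1.6.1, Cufflinks, DESeq2 and GRCh38, without their roles; the annotation release and strand setting are not given in the sources used here. At least 99.98% of nonzero values were within 0.01 of a whole multiple of a step per library (0.8246 to 1.0955), so reads were recovered. The table had 60590 rows for 60546 identifiers, and 44 second rows were added to the first; 96.4% of identifiers were in GENCODE 29, which gave coordinates and lengths. Chi-square per degree of freedom between libraries of a group was at least 65.3, so each counted as a sample. Separate cultures are not stated beyond different generations, and p-values measure the spread between these libraries. With the P number as a block, only the P12 and P13 pairs give that spread, and those p-values rest mostly on the prior variance.

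Values were put on the scale log2(value + 1) and fitted by group in limma 3.58.1 (R 4.3.3), with a prior variance that follows the mean, keeping genes that reached 1 in 3 or more libraries, with Benjamini-Hochberg adjustment over all genes tested. Fold changes of low genes are therefore understated. edgeR 4.0.16 and DESeq2 1.42.0 ran on recovered reads. The fits were run on simulated independent counts with a single dispersion. That setting lacks the library differences seen here, so it checks the code and not the error rates in these data. The genes named are the 10 targets, GOLPH3, 8 pathway genes always named, every called gene of each pathway list filled up to 3 by smallest p, and the 5 genes most like AXIN2; other names were added after their values were seen. The target genes and lists were chosen with earlier results of these data known.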

Additional observations from a re-analysis of the deposited data

Results flagged for a closer look

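SP5 moved in opposite directions in the pairs of libraries that share a P number. At P12 the library labelled GOLPH3 was below the one labelled Vector (log2 difference -1.63), and at P13 it was above (1.25). The difference between the pairs was not tested, since each side is 1 library. The P12 value rests on 2 reads against 7.21 normalized reads, where counting error is large.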

How the results depend on the processing

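LGR5 kept its direction and its call under all 18 alternatives fitted, with log2 fold changes from -4.85 to -4.02 and adjusted p up to 0.018. LEF1 did so in the 12 that tested it, from -11.50 to -8.08. The filter removed it with a minimum of 1 in every library, in all 3 fits without a Vector library, in those that left out P12 and in those limited to P12 and P13, by their construction. The number of target genes called was 2; it was 5 when blocked on the P number, 4 with only the P12 and P13 libraries and that block, 4 at an unadjusted p under 0.05 with or without a log2 fold change over 1, 1 without both P12 libraries, 1 with a minimum of 1 in every library and between 1 and 2 with each library left out; DESeq2 called 3 (RNF43 higher, LEF1 and LGR5 lower). The other pathway genes called, 5 at first, were 24, 21, 18, 14, 1 and 1 in those settings in the same order, 9 with DESeq2, 11 with the P number as a covariate, 3 with edgeR, 2 without the mean-dependent prior and 1 to 9 with each library left out. All genes called went from 1346 to 6082, 5191, 4663, 3776, 256 and 405 in that order, to 2399 with the covariate, and to between 459 (without Vector replicate 1) and 1528. Without Vector replicate 3 there were 481. With the replicate number as a block, 2 target genes, 4 other pathway genes and 1081 genes were called. Deviations from group means correlated at -0.232, -0.151 and 0.259 over the pairs with the same replicate number, so these do not pair libraries. The correlation was 0.256 at P12 and 0.259 at P13, where the pair also shares its replicate number. The highest, 0.331, was between GOLPH3 replicate 1 (P8) and Vector replicate 2 (P11), which share neither number. The RNF43 estimate was positive in all 18 settings (1.00 to 1.63), with adjusted p up to 0.407, and it was called in 4. Directions turned for ZNRF3 (-0.075 when blocked on P, also with P12 and P13 alone, -0.054 with P as a covariate, and -0.192 to 0.398 with each library left out, negative without GOLPH3 replicate 1 or Vector replicate 1), for SP5 (-0.19 when blocked on P, also with P12 and P13 alone, and -0.425 to 1.395 with each library left out, negative without GOLPH3 replicate 3), for AXIN2 (-1.009 to 0.343 with each library left out, positive without GOLPH3 replicate 2 or Vector replicate 2) and for TCF7 (-0.022 to 0.13, negative without GOLPH3 replicate 3), none of them called, and the cause was not tested. Omitting the P12 libraries and the fit limited to P12 and P13 were chosen after seeing the data. Depth limits ASCL2, at or under 3 reads in every library, and SP5.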
